A study of Mus musculus with 8 samples.

Results

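Control-dense islands are stretches of the mouse autosomes where a Brdt ChIP-seq island also held an unusual number of reads from the control library. They were chosen by the control count alone: every island on chromosomes 1 to 19 (mm9) with 200 or more control reads per kb of its length was taken, which gave 1956 islands of 393689 autosomal islands in 4 lists. Of these, 562 came from wild-type (WT) spermatocytes, 813 from WT round spermatids, 299 from BD1del spermatocytes and 282 from BD1del round spermatids. The lists hold islands of anti-Brdt ChIP from meiotic spermatocytes and post-meiotic round spermatids of adult mice, either WT (C57BL/6, cells pooled from 10 mice) or BD1del, in which Brdt lacks its first bromodomain. For BD1del the strain and the number of mice pooled were not given. The WT labels give MNase fragments of 200 bp and, for the ChIP libraries, 500 µg of chromatin and 0.6 µg of antibody. The BD1del labels give none of these. The 4 ChIP groups and the 4 input groups had 1 library each, so there was no replicate error. All comparisons are descriptions of these libraries, and intervals (exact 95%) cover counting error only. WT lists name F3 tags of pairs and BD1del lists paired F3 and F5 tags, so genotype and read set cannot be told apart. Island lists hold no expression values, so the labelled cell types were not checked against markers.

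Brdt is a testis-specific BET protein that binds acetylated histones through its bromodomains, and it acts in meiotic and post-meiotic male germ cells. In ChIP-seq, the control library shows how many reads a place yields without the antibody. The lists give a control count per island, and which input library it came from is not given in the sources used here. Most of the genome gives a similar density, but places such as the satellite arrays next to centromeres, ribosomal DNA or recently duplicated genes exist in many near-identical copies that a genome assembly represents by few, and reads of all copies can then be assigned to a single place. Such places collect large counts in ChIP and control alike, and a small ratio between them passes a count test easily.

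Control-dense islands were few, and in 3 lists mostly shorter than islands in general, apart from a tail of very long ones. They made up 1.90% (1.75 to 2.07%) of the autosomal islands in WT spermatocytes and 1.20% (1.12 to 1.28%) in WT round spermatids. In BD1del they made up 0.284% (0.253 to 0.318%) in spermatocytes and 0.148% (0.131 to 0.166%) in round spermatids. At the limit of 200 reads per kb the WT lists thus held more of them although they held fewer islands in all, 29531 and 67996 against 105380 and 190782. At a limit of 100 reads per kb the counts had the opposite order. They were then 2052 and 3151 in WT against 2468 and 4170 in BD1del. Median lengths of the control-dense islands were 600, 600, 600 and 400 bases in the order of the lists given above, against 2200, 1400, 1200 and 400 bases for all autosomal islands. Islands of a single 200-base window were 16.7%, 24.97%, 31.8% and 38.3% of the control-dense islands, against 2.89%, 7.70%, 8.78% and 39.3% of all autosomal islands, so in BD1del round spermatids the share was no higher than in general. At the other end, 6, 10, 26 and 18 of them spanned at least 10 kb. In BD1del these long islands held most of the control-dense sequence, 65.2% of the bases in spermatocytes and 55.8% in round spermatids, against 12.1% and 21.0% in WT.

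The limit lay far above the usual control density and did not cut a gap in its distribution. The median density of all autosomal islands was 41.3, 33.5, 50 and 43.3 control reads per kb, and that of the control-dense islands was 290.0, 292.5, 277.0 and 268.8. By the median, control depth differed little between lists, though single islands spread more widely between genotypes. At islands of identical coordinates below the limit, the median ratio of control counts was 0.893 between the WT stages (949 islands), 1.12 between the BD1del stages (638 islands), 0.963 between the spermatocyte lists (220 islands) and 1.12 between the round spermatid lists (510 islands). Quartiles were 0.776 and 1.20 for the spermatocyte lists and 0.918 and 1.41 for the round spermatid lists. Just inside the limit, from 200 up to 220 reads per kb, lay 88, 149, 62 and 66 islands. Just outside, from 180 up to 200, lay 108, 205, 92 and 119. On chromosome 1, the 200-base island from 26581001 to 26581200 of WT spermatocytes was just inside with 40 control and 53 ChIP reads. On chromosome 13, the 2000-base island from 3900401 to 3902400 of the same list was just outside at 198.5 control reads per kb, with 587 ChIP and 397 control reads.

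Several of the densest islands lay at the same places in all 4 lists. On chromosome 9, an island from 2999801 ran to 3038800 in WT spermatocytes, to 3038600 in WT round spermatids and to 3039800 in both BD1del lists. It lies at the centromeric start of the assembled sequence of the chromosome. It held 359691, 355988, 309999 and 295799 control reads, the largest count of each list among control-dense islands, and 452237, 325092, 456487 and 301891 ChIP reads. On chromosome 2, an island within 98499601 to 98507800 held 71051, 70145, 73017 and 71863 control reads and 70668, 60388, 78847 and 71648 ChIP reads. After scaling by control depth, WT had 1.20 and 1.07 times the control reads of BD1del at the chromosome 9 island in spermatocytes and round spermatids. At the chromosome 2 locus it had 1.01 and 0.872 times. The ChIP counts are raw and not scaled for the depth of each ChIP library. On chromosome 12, a stretch of 400 bases from 3109801 to 3110200 reached the highest control density of 3 lists, at 9858, 11640 and 12965 reads per kb in WT spermatocytes, BD1del spermatocytes and BD1del round spermatids. In WT round spermatids the highest density was that of the chromosome 2 island, at 11691 reads per kb, and the chromosome 12 island there spanned 1000 bases with 4000 reads per kb. A further short island on chromosome 9, which began at 35112601 in every list and spanned 800 to 1200 bases, held 7449, 7429, 8572 and 8640 control reads.

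Some of these counts exceed what the sequence could give if each read start were counted once. With 1 read per start position and strand, a kb holds at most 2000 read starts. Control density was above 2000 per kb in 13, 16, 8 and 11 control-dense islands, and ChIP density in 13, 8, 7 and 9. Across all autosomal islands, the same 13, 8, 7 and 9 were the only ones with a ChIP density above 2000 per kb. The largest densities given above are several times that number, so repeated read starts were counted in the densest islands.

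Control-dense islands took a large share of the reads for their size. In WT spermatocytes they covered 1.05% of the bases in autosomal islands and held 19.8% of the ChIP reads and 17.6% of the control reads there. In WT round spermatids they covered 1.09% and held 18.3% and 17.1%. In BD1del spermatocytes they covered 0.766% and held 13.1% of the ChIP and 9.71% of the control reads, and in BD1del round spermatids 0.519%, 7.62% and 9.27%. Exact intervals were narrow at these depths, for example 19.8 to 19.9% for the first share. Over the islands of all chromosomes, X and Y included, the ChIP shares were 13.5%, 14.9%, 11.1% and 6.72%. Control reads chose the islands, so a high control share follows from the rule, and the ChIP share is set beside it as a description.

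The chromosome 9 island alone held a large part of these ChIP reads. It took 51.8%, 48.3%, 64.3% and 61.5% of the ChIP reads of the control-dense islands, and with the chromosome 2 island 59.9%, 57.3%, 75.4% and 76.0%. Of all ChIP reads in autosomal islands, the chromosome 9 island held 10.3%, 8.82%, 8.46% and 4.69%. Without it the control-dense islands held 10.6%, 10.4%, 5.13% and 3.08% of the ChIP reads and 10.7%, 11.6%, 6.35% and 5.17% of the control reads. The ChIP share was then below the control share in all 4 lists, by the least in WT spermatocytes.

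**Figure D1:**
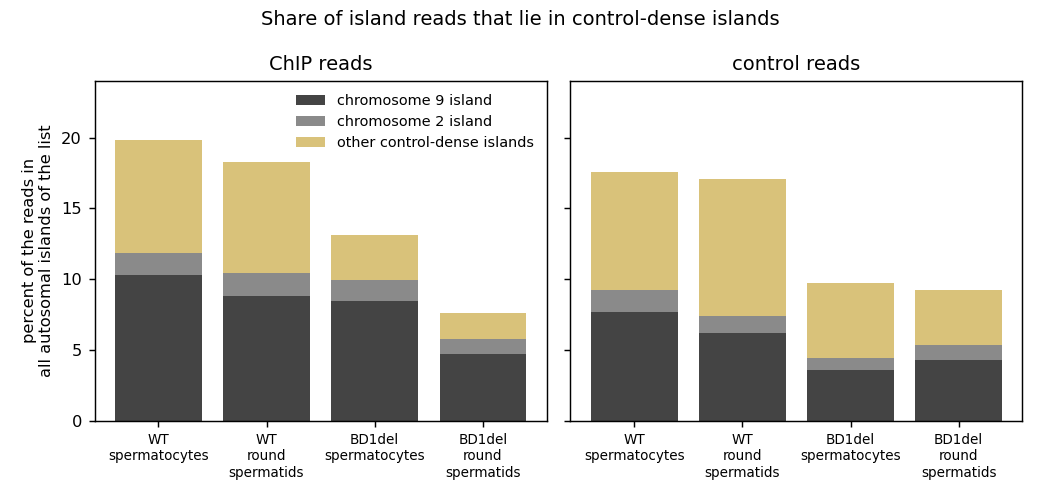
Percent of the reads in all autosomal islands that lay in control-dense islands, for ChIP reads (left) and control reads (right) of the 4 lists, with the chromosome 9 and chromosome 2 islands apart. The chromosome 9 island held 10.3% of the ChIP reads in WT spermatocytes and 4.69% in BD1del round spermatids.

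Pooled over all control-dense islands, ChIP exceeded scaled control, and in 3 lists the chromosome 9 island decided whether by more or less than elsewhere. Each island's deposited fold divides its ChIP reads by its control reads, scaled to the size of the ChIP library. The pooled ratio does the same with summed reads. In WT spermatocytes it was 1.90 (1.89 to 1.90) in control-dense islands and 1.64 in the other autosomal islands. In WT round spermatids it was 2.59 (2.58 to 2.60) against 2.39, and in BD1del spermatocytes 4.77 (4.76 to 4.79) against 3.39. In BD1del round spermatids the order was the opposite, 4.21 (4.20 to 4.23) against 5.22. Without the chromosome 9 island the ratios were 1.62, 2.09, 2.70 and 3.04, below the other islands in all 4 lists, though in WT spermatocytes by a factor of only 0.991. The direction also turned in WT at a deposited FDR of at most 1e-10, where control-dense islands had 0.968 (spermatocytes) and 0.793 (round spermatids) times the ratio of the others. In WT round spermatids it also turned with a limit of 100 control reads per kb (0.982 times) and with X and Y added (0.9798 times). In BD1del round spermatids it turned over islands of at least 1000 bases, at 1.17 times. The median deposited fold, in which each island counts equally, was 1.65, 2.04, 2.92 and 2.93 against 1.70, 2.79, 3.84 and 7.12 over all autosomal islands. A fold of at least 2 was reached by 101 of the 562 control-dense islands of WT spermatocytes (17.97%, 14.9 to 21.4%), against 31.8% of all autosomal islands of that list. It was reached by 441 of 813 (54.2%, 50.7 to 57.7%) against 77.1% in WT round spermatids. In BD1del it was reached by 216 of 299 (72.2%, 66.8 to 77.2%) against 94.2% in spermatocytes and by 203 of 282 (72.0%, 66.4 to 77.1%) against 98.7% in round spermatids. The control count stands in the denominator of the fold and also chose the islands, and high counts let low folds pass the test of the lists, so these differences have no test.

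**Figure D2:**
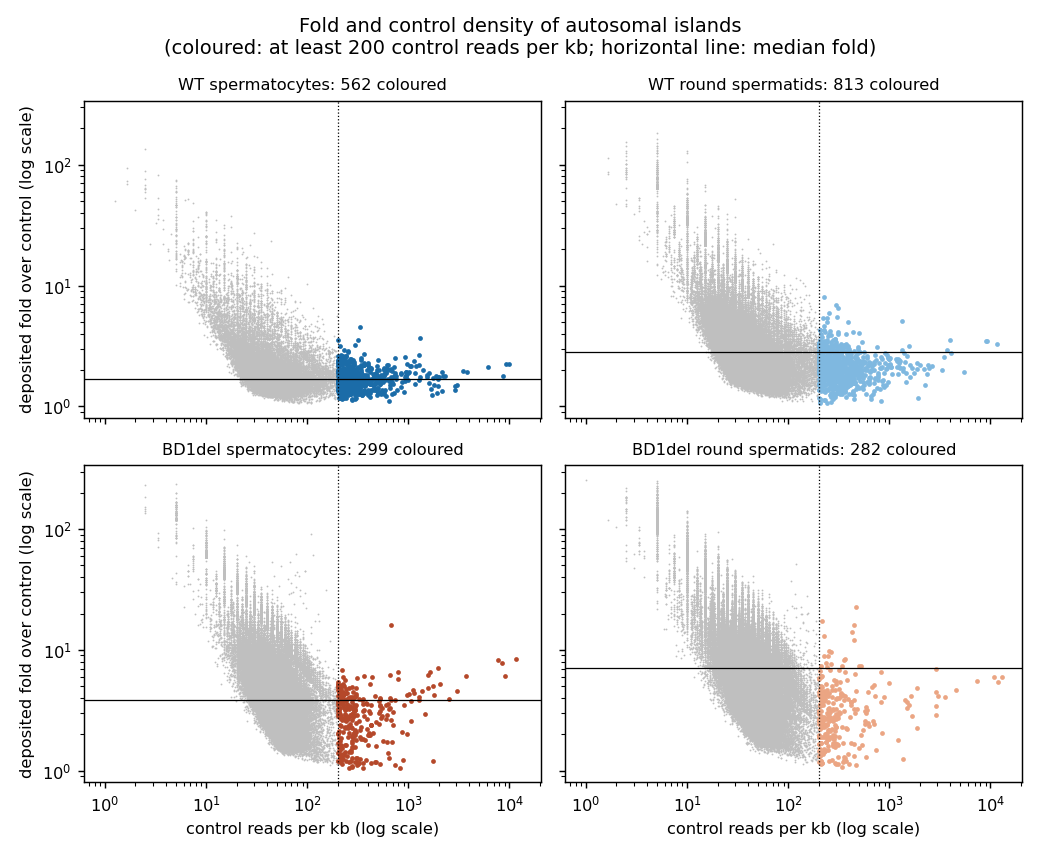
Deposited fold (log scale) against control reads per kb (log scale) for the autosomal islands of each list that had control reads, with control-dense islands in colour to the right of the dotted line at 200 and the list's median fold as a horizontal line. Median folds of the coloured points were 1.65, 2.04, 2.92 and 2.93, and most of the few points from 4000 reads per kb up lay above these medians.

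Within the control-dense islands, the pooled ratio, in which islands with many reads weigh most, was higher at the densest ones. Between 200 and 400 control reads per kb the pooled ratio was 1.55, 1.82, 1.48 and 1.63 (393, 585, 216 and 215 islands). Between 1000 and 4000 reads per kb it was 1.61, 2.08, 4.65 and 3.56 (36, 43, 20 and 16 islands), and from 4000 up it was 2.17, 3.34, 7.88 and 5.54 (4, 6, 4 and 5 islands). Below the limit the ratio was 1.68, 2.59, 4.25 and 5.93 between 20 and 50 reads per kb and lower, 1.54, 1.92, 2.15 and 2.99, between 100 and 200. The median fold per island gave another picture in places. Between 200 and 400 reads per kb it was 1.65, 2.03, 2.85 and 2.72, well above the pooled ratio in BD1del. In WT spermatocytes it was 1.69 between 20 and 50 reads per kb and 1.76 between 100 and 200, so it was not lower there. Several of the densest places had similar ratios within a list, though not all. On chromosome 9 from 2999801, on chromosome 9 from 35112601 and on chromosome 12 from 3109801, WT spermatocytes had 2.25, 2.13 and 2.25, and WT round spermatids had 3.46, 3.44 and, over the wider chromosome 12 island, 3.54. BD1del spermatocytes had 8.30, 7.72 and 8.41 there, and BD1del round spermatids 5.56, 5.95 and 6.00. The chromosome 2 island lay below these places, at 1.78, 3.26, 6.09 and 5.43. Other islands from 4000 reads per kb up were lower too: the chromosome 1 island from 16060201 of WT round spermatids had 5461 reads per kb and 1.92, and the chromosome 4 locus at 70038201 in BD1del round spermatids, named after its values were seen, had 4578 and 4.62. Set against the pooled ratio of the list's islands below the limit, the large chromosome 9 island stood at 1.37, 1.45, 2.45 and 1.07 times that value, so it exceeded them most in BD1del spermatocytes and least in BD1del round spermatids. Across the control-dense islands of a list, ChIP and control reads per kb had a Spearman correlation of 0.860 (n = 562), 0.745 (n = 813), 0.605 (n = 299) and 0.597 (n = 282). This is across islands, whose ChIP and control reads come from the same sequence, and it is given as a description.

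Among control-dense islands, the highest fold of each list was found at an island of at most 1200 bases, less dense than the densest places above. In BD1del that island was longer and denser than the median control-dense island of its list. Islands below 20 control reads per kb had median folds of 5.31, 7.43, 31.6 and 39.9, so the folds named here are not the highest of the lists. In BD1del round spermatids an island of 800 bases on chromosome 17, 4626001 to 4626800, had 1576 ChIP and 377 control reads, a fold of 22.8 (20.3 to 25.5). In BD1del spermatocytes an island of 1200 bases on chromosome 13, 77578001 to 77579200, had 2284 ChIP and 803 control reads, a fold of 16.0 (14.8 to 17.4). In WT spermatocytes an island of 400 bases within that stretch, 77578001 to 77578400, had 1067 ChIP and 519 control reads, a fold of 3.68 (3.31 to 4.09), the second highest of the control-dense islands of its list. The highest of them was 4.54 (3.71 to 5.59) on chromosome 6, 103264401 to 103264800, from 340 ChIP and 134 control reads. In WT round spermatids the highest among control-dense islands was 7.996 (5.55 to 11.7) on chromosome 19, 52007401 to 52007600, from only 95 ChIP and 45 control reads in a single window. The chromosome 17, chromosome 13 and chromosome 19 islands named here met islands of all other lists, and the chromosome 6 island met islands of 2 other lists.

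Most long control-dense islands had low folds in 3 lists, the chromosome 9 island being an exception. Among those of at least 10 kb the median fold was 1.42, 1.14, 1.18 and 1.22, and 3 of 6, 7 of 10, 23 of 26 and 15 of 18 had a fold under 1.5. The same shares over all autosomal islands of at least 10 kb were not computed. A low fold is therefore not shown to be particular to long islands that are control-dense. The longest of WT round spermatids, on chromosome 14 from 6964401 to 7009200, held 9206 control and 2577 ChIP reads, a fold of 1.06 (1.01 to 1.11). In BD1del spermatocytes an island of 80800 bases on chromosome 11, 3019201 to 3100000, held 66997 control and 12569 ChIP reads, a fold of 1.06 (1.04 to 1.08). It met no island of the other 3 lists. Single-window islands had higher median folds, 1.73, 2.42, 3.51 and 3.61.

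Between the stages of a genotype, the share of control-dense islands that met an island of the other list was above the share over all autosomal islands. In WT spermatocytes 497 of 562 (88.4%, 85.5 to 91.0%) shared a base with an island of WT round spermatids, against 58.1% of all autosomal islands. In the other direction it was 687 of 813 (84.5%, 81.8 to 86.9%) against 26.6%. In BD1del 237 of 299 in spermatocytes (79.3%, 74.2 to 83.7%) met the later stage's islands, against 21.6%, and 228 of 282 in round spermatids (80.9%, 75.8 to 85.3%) met the earlier stage's, against 12.3%. Between genotypes the shares were lower from the WT side. Of the WT control-dense islands 257 of 562 in spermatocytes (45.7%, 41.6 to 49.95%) met a BD1del island of the same stage, against 30.4% of all, and 404 of 813 in round spermatids (49.7%, 46.2 to 53.2%), against 26.4%. From the BD1del side it was 217 of 299 in spermatocytes (72.6%, 67.1 to 77.6%) against 8.96%, and 205 of 282 in round spermatids (72.7%, 67.1 to 77.8%) against 9.79%. Among all autosomal islands whose length lay within the interquartile range of the control-dense islands, the shares met were 53.5%, 19.97%, 19.2% and 10.3% between stages, in the order above, and 24.95%, 21.8%, 7.11% and 7.77% between genotypes. With a limit of 100 control reads per kb the BD1del shares were lower, 50.4% and 33.96% between stages and 37.6% and 28.3% between genotypes. From the WT side the shares between genotypes were then 40.8% in spermatocytes and 46.4% in round spermatids. At that limit the WT side was thus the higher at both stages. The lists differ in length and depth, and the gaps have no test.

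**Figure D3:**
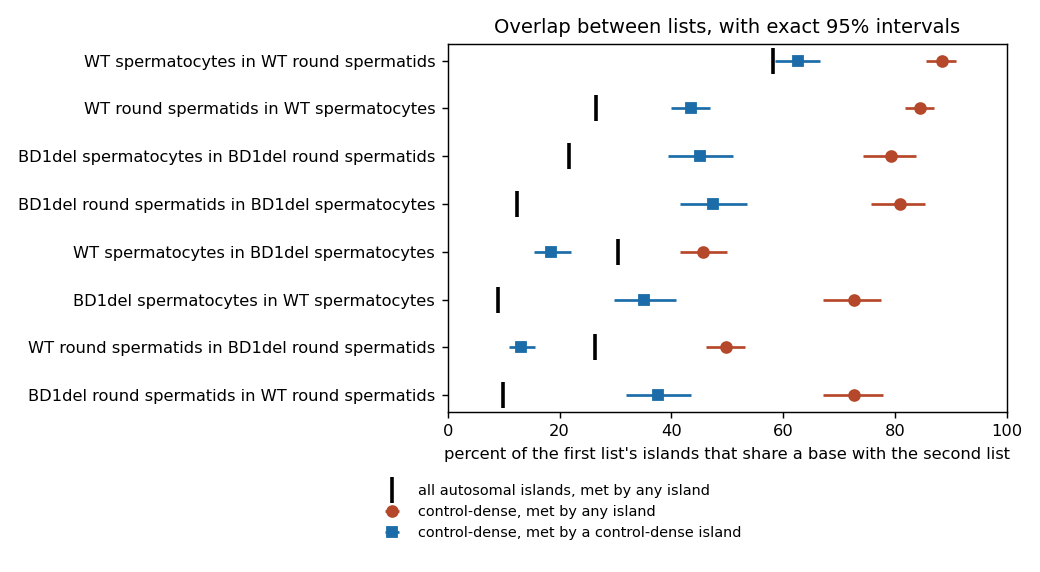
Percent of the islands of the first-named list that share at least 1 base with the second, for control-dense islands met by any island (circles) or by a control-dense island (squares), with exact 95% intervals, and for all autosomal islands (vertical ticks). All circles lie to the right of their ticks, from 45.7% for WT spermatocytes in BD1del spermatocytes to 88.4% between the WT stages.

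Fewer met an island that was itself above the limit. Of the control-dense islands 352 (62.6%) in WT spermatocytes met a control-dense island of the other WT stage, against 2.32% of all autosomal islands, and 353 (43.4%) in WT round spermatids, against 0.738%. In BD1del it was 135 (45.2%) in spermatocytes, against 0.218%, and 134 (47.5%) in round spermatids, against 0.126%. Between genotypes it was 104 of 562 (18.5%) from the WT side in spermatocytes, against 0.721%, and 105 of 299 (35.1%) from the BD1del side, against 0.251%. In round spermatids it was 107 of 813 (13.2%), against 0.306%, and 106 of 282 (37.6%), against 0.223%. In all 4 lists the share was larger within the genotype than across it, which was not tested.

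Joined across lists where they lay within 1000 bases, the control-dense islands formed 1279 loci. Of these, 807 were control-dense in 1 list, 349 in 2, 62 in 3 and 61 in all 4. Islands of any density were called in all 4 lists at 412 loci, and in 1 list only at 135. By genotype, 266 were control-dense in both WT lists and neither BD1del list and 33 in both BD1del lists and neither WT list. At 143 of the 266 and at 8 of the 33, neither list of the other genotype had an island of any density. By stage, 13 were control-dense in both spermatocyte lists and neither round spermatid list, and 13 the reverse. The WT lists hold more control-dense islands, 562 and 813 against 299 and 282. All autosomal islands were joined in the same way, to be set beside the 143 and 8 of the 1279 loci. Islands lay in both WT lists and neither BD1del list at 5215 of those 273344 loci (1.91%). They lay in both BD1del lists and neither WT list at 24074 (8.81%). Islands in both spermatocyte lists alone were found at 0.496% and in both round spermatid lists alone at 4.07%. The genotype counts of 266 and 33 and the stage counts of 13 and 13 allow islands below the limit in the other lists. These shares are therefore not a like measure for them. No share over all joined loci was computed for the 412 and the 135.

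At the 61 loci that were control-dense in all 4 lists, control reads were compared as sums over each list's own islands and per kb of those islands, since island bounds differed between lists. As sums, scaled by control depth, the ratio of spermatocytes to round spermatids lay within 1.5 times at all 61 loci in WT and at 57 in BD1del. The ratio of WT to BD1del did so at 45 in spermatocytes and at 39 in round spermatids. Per kb the gap was small: 45 loci in WT and 44 in BD1del lay within 1.5 times between stages, against 36 (spermatocytes) and 34 (round spermatids) between genotypes. The median ratio of WT to BD1del per kb was 0.986 in spermatocytes, with a range of 0.349 to 8.97, and 0.923 in round spermatids, with a range of 0.213 to 6.25. These loci were taken because each list had a control-dense island there, which favours similar densities. The 266 loci control-dense in both WT lists only and the 33 in both BD1del lists only are left out. A median near 1 is therefore no result about the genotypes.

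Among the loci similar between genotypes on both measures were both chromosome 9 islands described above and the chromosome 2 island. Per kb, WT had 1.24 and 1.11 times the control density of BD1del at the large chromosome 9 island, in spermatocytes and round spermatids. It had 0.752 and 0.767 times at the short chromosome 9 island and 0.986 and 0.747 times at the chromosome 2 locus. At the chromosome 12 locus the summed reads gave 0.879 and 0.688, but per kb the round spermatid value was 0.275, where the WT island spanned 1000 bases and the BD1del island 400.

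**Figure D4:**
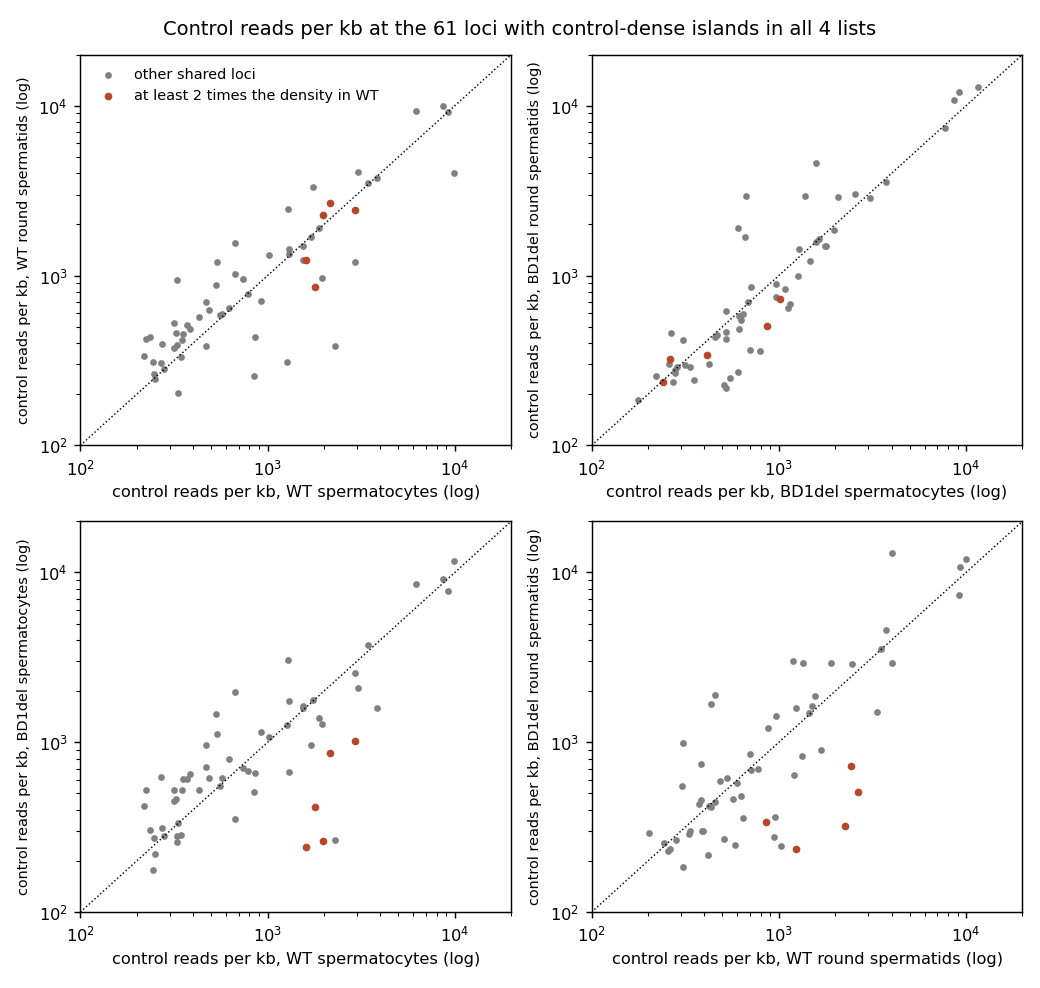
Control reads per kb (log scale) in the islands of 2 lists at each of the 61 loci that were control-dense in all 4 lists; the dotted line marks equal density, and red points are the 5 loci with at least 2 times the density in WT at both stages after scaling by depth. Points scatter around the line in all 4 panels, and the red points lie below it between genotypes (bottom).

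Loci with more control reads in WT depended on the measure. As sums, 11 loci had at least 2 times as many in WT at both stages and 1 had at least 2 times as many in BD1del. Per kb it was 5 and 1, and 4 of the 11 were among the 5. On chromosome 10, 7228801 to 7238000, where islands were of similar length (9200, 8600, 8800 and 8200 bases), control reads were 19715, 22881, 7594 and 4153. Per kb, WT had 2.58 times as many in spermatocytes and 4.69 times as many in round spermatids. ChIP reads there, not scaled for ChIP depth, were 14660, 12913, 2831 and 1167. On chromosome 6, 29696201 to 29699600, control counts were 7597, 8218, 2634 and 1881, which is 2.995 and 2.98 times per kb. The other 3 loci lay on chromosomes 3 (59848401 to 59851800 and 148715201 to 148717800) and 4 (118217201 to 118222200). On chromosome 17, 13740601 to 13749400, the sums were 15304, 15993, 6416 and 4207, but the islands covered 8800, 4800, 3600 and 2800 bases. The densities were 1739, 3332, 1782 and 1503 reads per kb, a ratio after scaling by depth of 1.01 in spermatocytes and 1.98 in round spermatids. In spermatocytes the density was lower in WT at 2 further loci of the 11, on chromosome 17 from 13498601 (539 against 1118 reads per kb) and on chromosome 2 from 91932601 (371 against 605). Apart from the chromosome 10 locus and the first on chromosome 17, these loci were named after their values were seen. WT and BD1del differed in genotype, read set and possibly strain and preparation, and these cannot be told apart.

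Where BD1del had an island at the 266 loci that were control-dense in both WT lists only, its control density was below the limit by definition. At 143 of the 266 loci neither BD1del list had an island, so their control counts in BD1del are not known from these lists. BD1del spermatocytes had islands at 81 of the 266, with a median of 90.0 control reads per kb against 293.3 in WT spermatocytes at the same loci. BD1del round spermatids had islands at 103, with a median of 72.5 against 340.0 in WT round spermatids. The locus with the most ChIP reads was on chromosome 1, 16058801 to 16065200. It held 14310 control and 14154 ChIP reads in WT spermatocytes and 26214 control and 13273 ChIP reads in WT round spermatids. The BD1del spermatocyte island that met it held 246 control and 277 ChIP reads over 5600 bases, or 43.9 control reads per kb, and BD1del round spermatids had no island. Control density in WT spermatocytes was thus 52.9 times that of BD1del spermatocytes after scaling. On chromosome 6, 112174401 to 112177200, a locus chosen after its values were seen, control reads were 3010 and 4074 in WT, and 72 over 1000 bases in the BD1del round spermatid island. At this locus ChIP reads were 3646 in WT spermatocytes and 1712 in WT round spermatids, ratios of 2.17 (2.06 to 2.27) and 1.59 (1.503 to 1.68).

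Loci that were control-dense in BD1del alone were fewer, 33 in both BD1del lists. They were mostly short, with a median of 400 covered bases in both lists and median ratios of ChIP to scaled control of 2.58 and 2.53. Those named here hold the most control reads, were chosen after their values were seen, and were long islands of low fold. On chromosome 8, between 19917201 and 20013800, BD1del spermatocyte islands covered 95600 bases with 32918 control and 6845 ChIP reads, and BD1del round spermatid islands covered 50200 bases with 17299 and 4328. Neither WT list had an island there. On chromosome 5, 5 such loci lay between 14901601 and 15222400. The largest, 14901601 to 14964800, held 18263 control reads in the spermatocyte list and 7713 in the round spermatid list. Over those 5 loci the ratio of ChIP to scaled control was 1.13 to 1.19 in the former list and 1.14 to 1.29 in the latter. WT round spermatids had islands at these 5 loci with 108 to 151 control reads per kb, below the limit, and WT spermatocytes had none. A low fold is called only where the counts are large, so an absent island in WT does not show a low control density.

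Control-dense islands were most frequent on chromosome 19 for its length. Chromosome 19 held 48 (8.54%, 6.36 to 11.2%), 62 (7.63%), 26 (8.70%) and 23 (8.16%) of them, on 2.42% of the autosomal span. This is 0.823, 1.06, 0.446 and 0.394 per Mb, against 0.233, 0.337, 0.124 and 0.117 per Mb over all autosomes. Of all islands on chromosome 19, 4.41%, 2.96%, 0.924% and 0.464% were control-dense, the highest share of any autosome in each list. They were short, with a median of 400 bases in each list, and accounted for only 3.54%, 3.30%, 1.94% and 2.34% of the control-dense bases. Median control density over all islands of chromosome 19 was 43.8, 38.0, 51.7 and 45.0 reads per kb, against the 41.3, 33.5, 50 and 43.3 given above for all autosomes, so the chromosome was only slightly denser in general. Chromosome 17 was second in control-dense islands per Mb in 3 lists, with 0.434, 0.553 and 0.217, and chromosome 18 in BD1del round spermatids, with 0.239. Chromosome 1 held the most islands, 54, 85, 30 and 29, close to its share of the islands of the BD1del lists (11.2% and 9.85%) but below it in WT (9.61% against 18.8% and 10.5% against 13.8%).

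**Figure D5:**
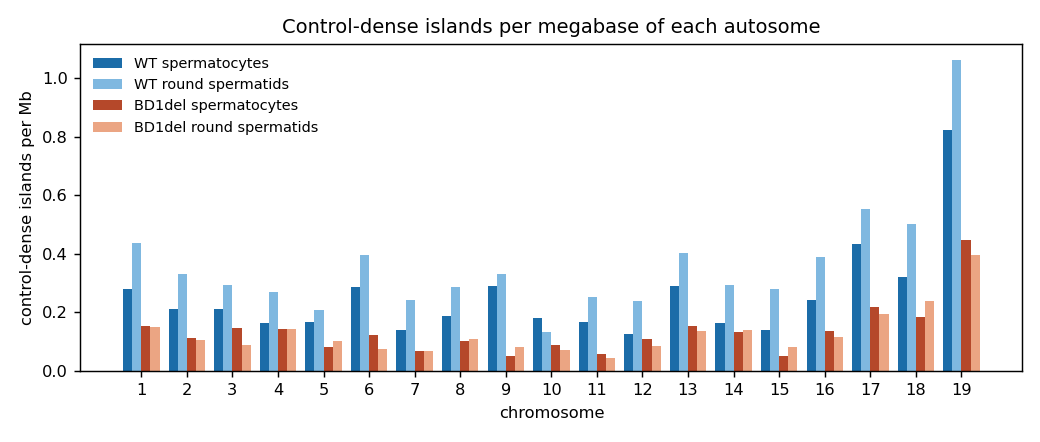
Control-dense islands per megabase of autosomal span, by chromosome, for the 4 lists. Chromosome 19 stood highest in every list, at 0.823, 1.06, 0.446 and 0.394 per Mb.

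Chromosome ends held few control-dense islands, and the centromeric ends many of their reads. Within 1 Mb of the first island of a chromosome, next to the centromere, lay 9, 13, 15 and 10 of them, which was 1.60%, 1.60%, 5.02% and 3.55%, against 1.40%, 0.968%, 0.717% and 0.752% of all autosomal islands. They held 54.3%, 50.9%, 69.6% and 64.8% of the ChIP reads of the control-dense islands, nearly all of it in the chromosome 9 island. Within 1 Mb of the last island lay 15, 26, 17 and 18, or 2.67%, 3.20%, 5.69% and 6.38%, against 1.49%, 1.10%, 0.904% and 0.890% of all islands, with only 1.19 to 1.51% of the ChIP reads. Both shares exceeded those of all islands in all 4 lists. Only at the centromeric end of the WT spermatocyte list, and of the WT round spermatid list, did the exact interval of the share (0.735 to 3.02% and 0.854 to 2.72%) include the share of all islands. The intervals treat neighbouring islands of 1 library as independent, so they are no test of the ends.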

How the data were processed

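Brdt ChIP-seq was described from 4 deposited island lists, each from 1 ChIP library set against 1 control. Per the submitters' processing notes, the authors used SICER and the mm9 build, with windows of 200 and gaps of 600 bases, per the labels of the lists. The deposited lists give counts of ChIP and control reads per island. They also give p-values with an FDR below 0.01, and the ratio (fold) of ChIP to scaled control, as the authors made them. Aligner, read filters and duplicate handling: not given in the sources used here.

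Control reads per kb were computed per autosomal island, and islands at or above 200 were taken. The ChIP to control library ratio was recovered from the deposited counts and folds (0.559, 0.264, 0.177 and 0.184 in the order of the lists). Pooled ratios and shares have exact 95% (Clopper-Pearson) intervals. These hold for counting error alone: reads without molecular identifiers are not independent molecules. Control depth was compared at islands of identical coordinates below the limit with at least 20 control reads in both lists. Islands were joined into loci across lists within 1000 bases. Autosomal islands of a list held 3684584 to 6443453 ChIP reads and 4683073 to 8632837 control reads. Island bounds are 1-based in mm9. Samples were grouped by their titles, no test was possible with 1 library per group, and calculations were tested on simulated data. Python 3.11.15, pandas 2.3.3, numpy 2.4.6, scipy 1.17.1 and matplotlib 3.10.9 were used.

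Named regions are the 10 loci with the most ChIP reads and, per list, the 3 densest, the 3 with the most control reads, the 3 with the highest fold, the 3 longest, and the 2 just inside and 2 just outside the limit. Others are named as chosen after their values were seen, and the 61 shared loci and their classes were likewise defined with values known. The islands and comparisons were chosen with earlier results of these data known. The limit, island length, FDR, chromosomes, overlap and joining distance were varied, and control reads per kb were added beside summed reads at the shared loci after the data were seen. Genes and sequences at these positions were not analysed here.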

Additional observations from a re-analysis of the deposited data

Results flagged for a closer look

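The pooled ratio of ChIP to scaled control in control-dense islands, divided by that in the other autosomal islands of the same list, was 1.16 in WT spermatocytes, 1.08 in WT round spermatids and 1.41 in BD1del spermatocytes, but 0.808 in BD1del round spermatids. It lies on the other side of 1 in that list alone, and with 1 library per group the difference was not tested. Without the chromosome 9 island the values were 0.991, 0.877, 0.797 and 0.583, all below 1.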

How the results depend on the processing

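The values below left their counting interval, changed by more than 1.5 times or changed direction under another setting, with WS and WR for WT spermatocytes and round spermatids and BS and BR for those of BD1del; the cause was not tested. Of 181 values under other settings, 29 stayed within these bounds, 144 moved and 8 changed direction. A change of direction was scored only for the ratio of control-dense to other islands: 0.982 (WR) at a limit of 100, 1.17 (BR) over islands of at least 1000 bases, 0.968 (WS) and 0.793 (WR) at the stricter FDR, 0.9798 (WR) with X and Y, and 0.991 (WS), 0.877 (WR) and 0.797 (BS) without the island with the most ChIP reads. The order of the lists was not scored. At a limit of 100 the order of the genotypes also turned, for the number of islands and for the overlap between genotypes. No paired analysis was possible because each group had 1 library and no test was made. For the same reason no replicate could be left out. Depth bears on the counting error and, since the limit is an unscaled count per kb, on which islands reach it. The 61 loci shared by all lists changed by less than 1.5 times when islands were joined only where they touched or within 10000 bases. The 11 loci with at least 2 times the control reads in WT at both stages were 5 by control reads per kb, a comparison chosen after seeing the data; island lengths differ between lists. With a limit of 100 control reads per kb, the number of islands was 2052 (WS), 3151 (WR), 2468 (BS) and 4170 (BR). For ChIP reads the share (%) was 27.4 (WS), 24.01 (WR), 15.9 (BS) and 10.05 (BR). For control reads the share (%) was 25.9 (WS), 24.3 (WR), 14.1 (BS) and 13.4 (BR). Relative to other islands the ratio was 1.08 (WS), 0.982 (WR), 1.14 (BS) and 0.721 (BR). The overlap (%) was 76.9 (WS in WR), 69.2 (WR in WS), 50.4 (BS in BR), 33.96 (BR in BS), 40.8 (WS in BS), 37.6 (BS in WS) and 28.3 (BR in WR). The number of loci in all 4 lists was 219. With a limit of 400, the number of islands was 169 (WS), 228 (WR), 83 (BS) and 67 (BR). ChIP reads in these islands (%) were 16.8 (WS), 15.3 (WR), 12.05 (BS) and 6.96 (BR). Control reads in these islands (%) were 14.3 (WS), 13.1 (WR), 7.099 (BS) and 7.17 (BR). As a ratio to other islands the value was 1.21 (WS), 1.196 (WR), 1.79 (BS) and 0.969 (BR). The overlap (%) was 95.9 (WS in WR), 92.5 (WR in WS), 85.5 (BS in BR), 92.5 (BR in BS), 83.1 (BS in WS) and 92.5 (BR in WR). The number of loci in all 4 lists was 30. With a limit of 5 times the median density of each list, the number of islands was 185 (BS). The ChIP read share (%) was 19.7 (WS), 19.3 (WR), 12.8 (BS) and 7.49 (BR). The control read share (%) was 17.5 (WS), 18.3 (WR), 9.06 (BS) and 8.84 (BR). The ratio to other islands was 1.07 (WR), 1.47 (BS) and 0.834 (BR). The overlap (%) was 81.1 (WR in WS). Over islands of at least 1000 bases, the number of islands was 226 (WS), 329 (WR), 123 (BS) and 93 (BR). For ChIP reads the share (%) was 19.6 (WS), 19.8 (WR), 16.1 (BS) and 15.01 (BR). For control reads the share (%) was 16.96 (WS), 10.5 (BS) and 13.1 (BR). Relative to other islands the ratio was 1.19 (WS), 1.197 (WR), 1.62 (BS) and 1.17 (BR). The overlap (%) was 77.4 (WS in WR), 72.6 (WR in WS), 69.9 (BS in BR), 63.4 (BS in WS) and 45.3 (WR in BR). The number of loci in all 4 lists was 31. At a deposited FDR of at most 1e-10, the number of islands was 296 (WS), 410 (WR), 182 (BS) and 172 (BR). ChIP reads in these islands (%) were 41.6 (WS), 38.03 (WR), 17.6 (BS) and 9.05 (BR). Control reads in these islands (%) were 42.3 (WS), 43.6 (WR), 13.8 (BS) and 12.3 (BR). As a ratio to other islands the value was 0.968 (WS), 0.793 (WR), 1.33 (BS) and 0.709 (BR). The overlap (%) was 76.4 (WS in WR), 65.6 (WR in WS), 40.9 (WS in BS), 49.5 (BS in WS) and 60.5 (BR in WR). With X and Y added, the number of islands was 1464 (WS), 1884 (WR), 1182 (BS) and 1015 (BR). The ChIP read share (%) was 26.2 (WS), 24.5 (WR), 18.5 (BS) and 11.1 (BR). The control read share (%) was 25.2 (WS), 24.8 (WR), 18.3 (BS) and 15.6 (BR). The ratio to other islands was 1.05 (WS), 0.98 (WR), 1.01 (BS) and 0.675 (BR). The overlap (%) was 88.9 (WR in WS), 90.5 (BS in BR), 92.7 (BR in BS), 72.2 (WS in BS), 87.99 (BS in WS), 71.4 (WR in BR) and 85.1 (BR in WR). The number of loci in all 4 lists was 370. Without the island with the most ChIP reads, the ChIP read share (%) was 10.6 (WS), 10.4 (WR), 5.13 (BS) and 3.08 (BR). For control reads the share (%) was 10.7 (WS), 11.6 (WR), 6.35 (BS) and 5.17 (BR). Relative to other islands the ratio was 0.991 (WS), 0.877 (WR), 0.797 (BS) and 0.583 (BR). With at least 50% of an island covered, the overlap (%) was 84.5 (WS in WR), 80.9 (WR in WS), 72.2 (BS in BR), 40.2 (WS in BS) and 42.1 (WR in BR). By bases in place of islands, the chromosome 1 share (%) was 12.4 (WS), 13.5 (WR), 16.9 (BS) and 3.92 (BR). The chromosome 19 share (%) was 3.54 (WS), 3.296 (WR), 1.94 (BS) and 2.34 (BR).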

Other observations

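The same limit was also applied to the sex chromosomes, which the comparisons above leave out. On X, 826 of 6786 islands in WT spermatocytes reached 200 control reads per kb (12.2%). The counts were 972 of 6652 (14.6%) for WT round spermatids, 758 of 6977 (10.9%) for BD1del spermatocytes and 606 of 10697 (5.67%) for BD1del round spermatids. These X islands held 37.5%, 50.3%, 38.8% and 29.6% of the ChIP reads in X islands, at pooled ratios of ChIP to scaled control of 1.501, 1.96, 2.34 and 2.61. On Y, 76 of 298, 99 of 320, 125 of 314 and 127 of 349 islands reached the limit. Median control density over all X islands was 57.3, 63.3, 69.2 and 45 reads per kb, above that of autosomal islands in every list.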
